A study of Arabidopsis thaliana with 24 samples.

Results

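RNA transport and nuclear pore genes are described here as the 177 genes whose KEGG annotation in the deposited table names the pathway RNA transport and neither the spliceosome nor ribosome biogenesis in eukaryotes, leaving out the elongation factor gene EF1A (AT5G60390). They are 177 of the 32833 genes of the table and 177 of the 208 annotated to the pathway, of which 30 are also annotated to the spliceosome or ribosome biogenesis. Of the 177 genes, 158 were placed in 14 roles by what their products are known or described to do. The other 19 carry a description of another kind of protein, and 9 of these lie within 2 loci of a gene with the same KEGG identifier. RNA was sequenced from whole seedlings of Arabidopsis thaliana, all in the Col-0 background. Besides the wild type (WT) there were 2 mutants, the homozygous T-DNA insertion lines uap1-1 and uap1-2, lines of the gene UAP1, which the series title names a splicing factor with a function in cold stress. Each genotype was left without treatment (control) or placed at 4 °C for 24 h (cold), with 4 libraries in each of the 6 groups, which the labels call independent biological replicates. Age is not settled by the labels, which give treatment from day 11 and collection at day 12 in the design text but 10-day-old seedlings in the extraction protocol.

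Messenger RNA leaves the nucleus through the nuclear pore, a ring of nucleoporins stacked as outer, inner and membrane rings around a channel lined with flexible repeat proteins. On the cytoplasmic side the cap-binding factors, poly(A)-binding proteins and the eIF3 scaffold bring it to the ribosome, while eIF1, eIF1A, eIF2, eIF5 and eIF5B select the start codon. The KEGG pathway of this name holds both sides of that route, together with the enzymes that trim tRNA ends, assemble spliceosomal RNPs and carry cargo with the GTPase Ran.

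Library totals ran from 19289385 to 25501547 counts, and the 177 genes together took 0.775% to 1.14% of a library. The shoot markers RBCS1A and CAB3 stood at 4335 and 1977 FPKM or more in every library. The shoot marker LHCB2.1 stood lower in cold without overlap, at 308 to 536 FPKM beside 818 to 1663 FPKM in control. Of the root markers, SCR ran from 7.47 to 16.1, WER from 1.22 to 5.96, PLT1 from 0.57 to 3.55 and COBL9 from 0.04 to 1.29 FPKM. The flower markers AP1 and AG reached at most 1.60 and 0.41 FPKM. The seed markers OLEO1 and EM6 moved with the treatment at low levels, OLEO1 from at most 0.21 FPKM in control to 0.69 FPKM or more in cold and EM6 from at most 0.35 to 0.36 FPKM or more, and the part of LHCB2.1 and seed marker shifts in the cold values below was not tested. The cold marker KIN1 ran from 30.1 to 92.6 FPKM in the control libraries and from 1198 to 1848 FPKM in the cold libraries. Libraries of a group differed in how counts were spread over short and long transcripts. For genes over 3000 bases of exon, the median deviation of a library from its group mean ran from -0.38 in uap1-1 control replicate 2 to 0.38 in WT control replicate 3 on the log2 scale. In whole seedlings, fewer cells of a type and less RNA per cell cannot be told apart.

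The highest levels per exonic length belonged to eIF4A1 (AT3G13920), the helicase that unwinds the leader of messenger RNA, at a mean of 206 FPKM over the 24 libraries. Poly(A)-binding protein PAB2 (AT4G34110) followed at 183 FPKM, the elongation factor eEF1A (AT1G07920) at 170 FPKM, the plastid protein PSRP2 (AT3G52150) at 157 FPKM and eIF1 (AT5G54940) at 141 FPKM. In WT control, eIF4A1 stood at 154 ± 30.0 FPKM (SD, n = 4), below PAB2 at 209 ± 21.2 FPKM. In WT cold the order was turned, with eIF4A1 at 246 ± 28.2 FPKM and PAB2 at 170.0 ± 13.8 FPKM. Counts were high enough for a test in 147 of the 177 genes, and the 30 that were not tested had a mean of at most 0.180 FPKM, 6 of them with no count in any library.

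Cold raised more of these genes than it lowered in each genotype. In WT, 95 of the 147 tested genes were called at an adjusted p under 0.05 by edgeR's quasi-likelihood test, 70 higher and 25 lower in cold, where 54.2% of all 21428 tested genes were called, 25.8% higher and 28.4% lower. In uap1-1, 63 were higher and 21 lower, against 55.9% of all genes, 26.7% higher and 29.2% lower. In uap1-2, 65 were higher and 20 lower, against 52.5% of all genes, 26.5% higher and 26% lower. Changes of at least 2-fold were made by 18 of the 147 genes upward and 10 downward in WT, beside 3197 and 3364 of all 21428 tested genes. The median log2 fold change of the 147 genes was 0.36 in WT, 0.35 in uap1-1 and 0.33 in uap1-2, beside -0.06, -0.07 and -0.01 for all tested genes. Libraries were scaled by TMM, which holds the bulk of genes steady, and with plain library totals the median of all genes moved to -0.27, -0.50 and -0.20. With library totals the split of called genes became 45 higher and 34 lower in WT, 26 and 39 in uap1-1, and 36 and 30 in uap1-2. Under that scaling 54.2% of all tested genes were called in WT (19.2% higher, 35% lower), 61.3% in uap1-1 (15.8% and 45.5%) and 52.2% in uap1-2 (19.6% and 32.7%). Directions below are therefore relative to the bulk of genes. Some of the calls that library totals ended are named with their value and others are not, so a call without such a value may also have been lost.

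**Figure D1:**
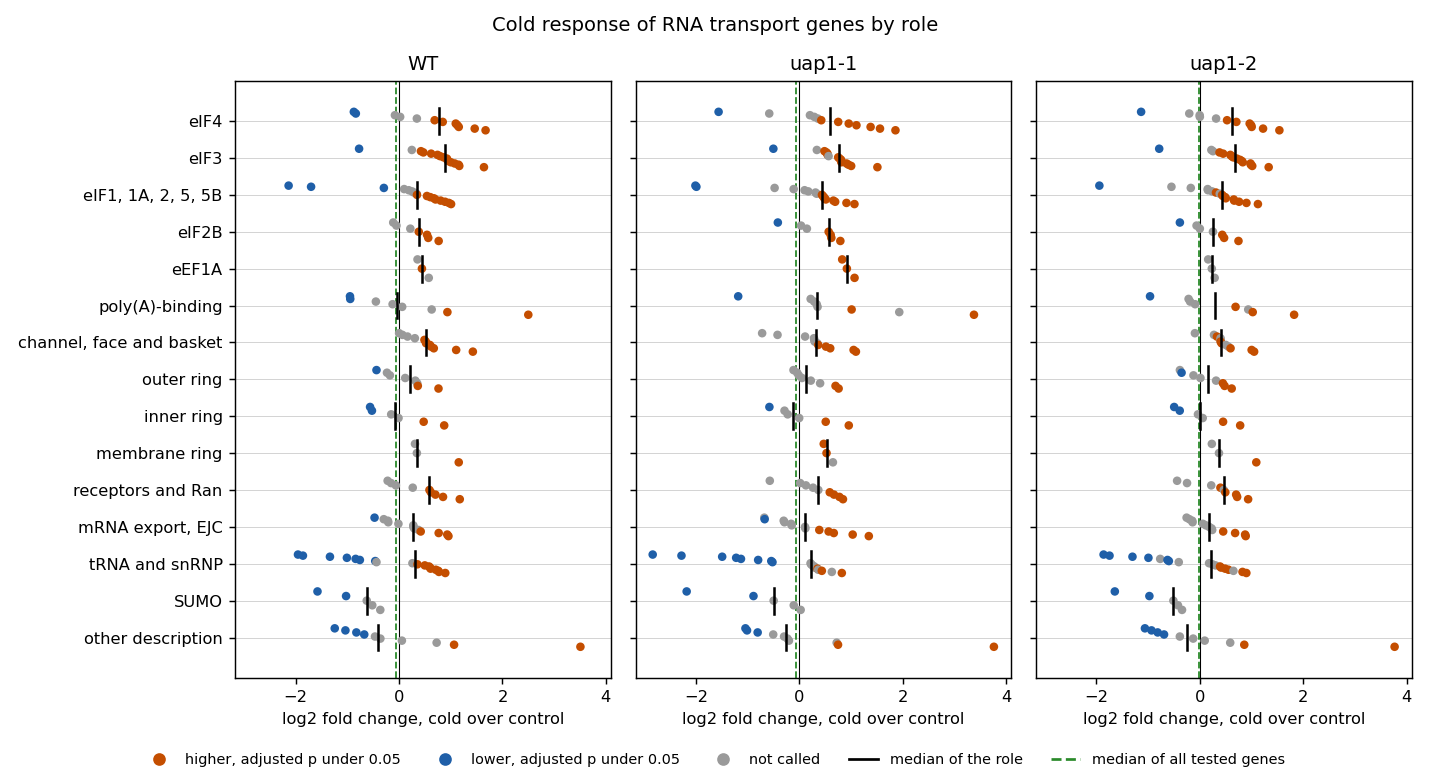
Log2 fold change of cold over control for the 147 tested genes (1 point each), by role, in WT, uap1-1 and uap1-2; orange and blue points passed an adjusted p under 0.05 and grey points did not. The medians of eIF4 and eIF3, black bars at 0.77 and 0.89 in WT, lie to the right of the median of all tested genes (dashed), and the SUMO group lies to its left at -0.62.

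The 3 cold comparisons share no library. The same 51 genes were called higher and the same 16 called lower in all 3 genotypes, 39 were called in none, 41 in 1 or 2 genotypes, and 0 were called in opposite directions. Of all tested genes 20.2% were called higher in all 3 genotypes, 20.4% lower in all 3 and 30.9% in none. All cold libraries lay above all control libraries for 50 of the 147 genes in WT, 61 in uap1-1 and 65 in uap1-2, beside 21.5%, 23.3% and 24.4% of all tested genes. They lay below them for 19 in each genotype, beside 22.4%, 24.9% and 23.9% of all tested genes.

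Of the initiation factors, the cap-binding and helicase group held the gene with the largest rise in WT. Of the 12 tested eIF4 genes, 7 rose and 2 fell in WT, beside 25.8% and 28.4% of all tested genes. The count was the same under library totals, beside 19.2% and 35% of all tested genes. The helicase gene eIF4A2 (AT1G54270) had 107, 84.3, 105 and 84.6 CPM (counts relative to the scaled library size) in the WT control libraries and 272, 310.1, 277 and 355 CPM in the cold libraries. It rose by log2 1.67 in WT (SE 0.13, adjusted p = 4.46e-10, edgeR); uap1-1 gave 1.86 and uap1-2 gave 1.54. Every cold library lay above every control library of its genotype. Its paralog eIF4A1 had 580, 384, 271 and 328 CPM in WT control and 703, 725, 815 and 563 CPM in WT cold, where WT control replicate 1 overlapped the cold libraries. It rose by 0.84, 1.10 and 0.71 in WT, uap1-1 and uap1-2 (adjusted p = 0.00158, 0.000117 and 0.00666, edgeR).

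Plants carry a second cap-binding complex, eIF(iso)4F, built on eIF(iso)4G and eIF(iso)4E. The scaffold gene eIF(iso)4G2 (AT2G24050) went from 38.4, 33.5, 39.4 and 35.7 CPM in WT control to 109.9, 87.5, 90.5 and 118 CPM in WT cold, a rise of log2 1.46 (SE 0.12, adjusted p = 1.28e-09, edgeR), with 1.56 in uap1-1 and 1.22 in uap1-2. Its paralog eIF(iso)4G1 (AT5G57870) rose by 1.13, 1.38 and 0.99 in WT, uap1-1 and uap1-2, and its groups did not overlap in any genotype. The scaffold of the other complex, eIF4G (AT3G60240), stood at 0.34 in WT and missed the threshold (adjusted p = 0.0539, edgeR).

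Among the proteins that hold the cap itself, eIF4E (AT4G18040) had 36.3, 51.2, 40.5 and 44 CPM in WT control and 108.9, 102, 78.7 and 93.3 CPM in WT cold. It rose by log2 1.16 (SE 0.16, adjusted p = 1.78e-06, edgeR), and in uap1-1 its rise of 0.75 lost the call under library totals (0.35, adjusted p = 0.0821). The tandem relatives eIF4E1B (AT1G29550) and eIF4E1C (AT1G29590) moved the other way, from 5.71 and 2.08 FPKM over all libraries beside 70.8 FPKM for eIF4E. eIF4E1B went from 4.60, 7.08, 7.50 and 6.30 CPM to 3.35, 3.45, 1.77 and 5.37 CPM in WT, groups that overlap, and fell by 0.87, 1.56 and 1.13 in WT, uap1-1 and uap1-2 (adjusted p = 0.00904, 4.96e-05 and 0.00116, edgeR). Of their 31-base words 33.7% and 35.1% recur in the genome, so reads could have been split between them. eIF4E1C fell by 0.84 in WT (adjusted p = 0.0425), and its call was lost without WT control replicate 3 (-0.53) or 4 (-0.87) and without WT cold replicate 1 (-0.64) or 3 (-0.73).

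**Figure D2:**
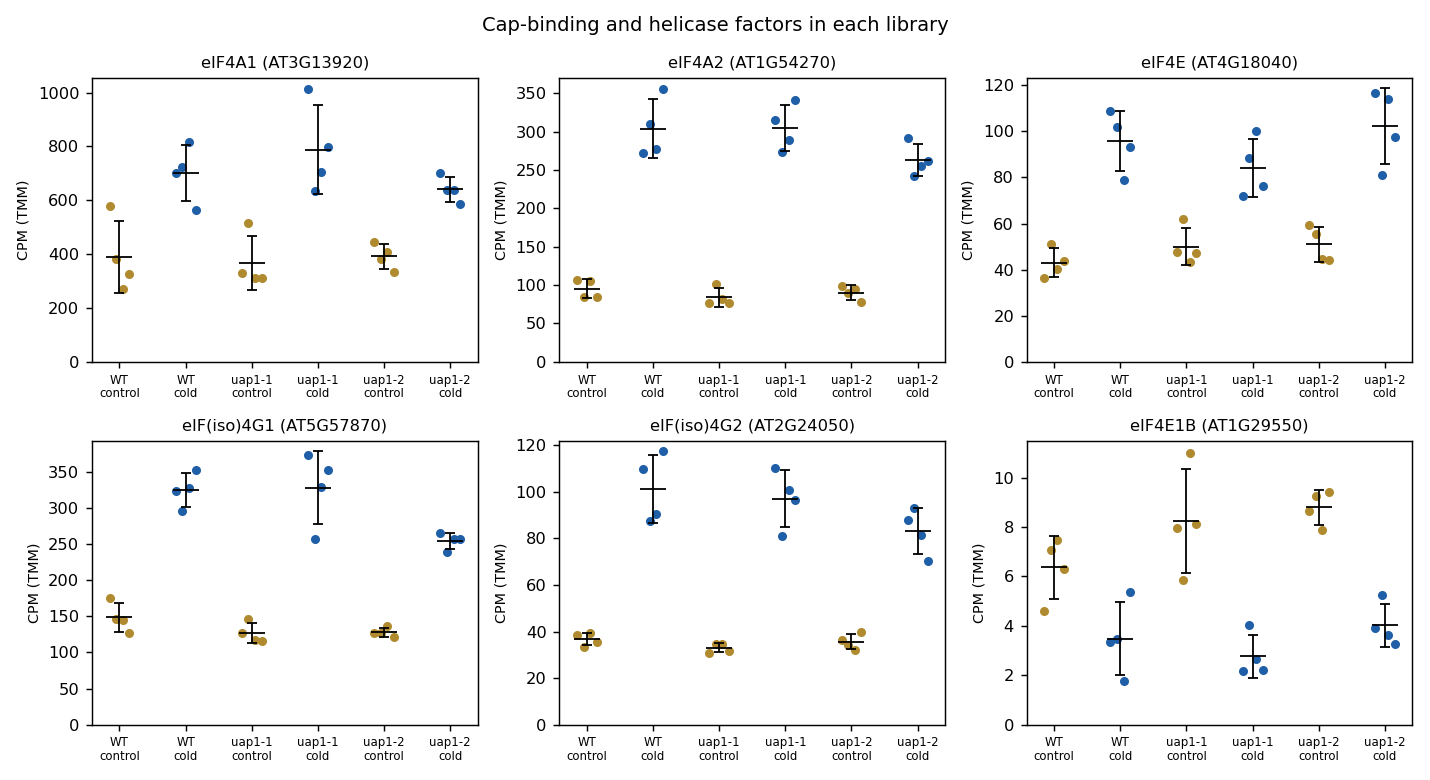
CPM after TMM scaling of 6 cap-binding and helicase genes in each library (points; ochre for control, blue for cold), with the mean and SD of each group of 4. eIF4A2 and eIF(iso)4G2 show cold libraries above all control libraries in each genotype, and eIF4E1B shows them lower with overlap in WT.

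Relative to the bulk of genes, the eIF3 scaffold moved nearly as a whole. Of its 16 tested genes 14 rose and 1 fell in WT, and 13 and 1 in uap1-1 and in uap1-2. Among all tested genes 25.8%, 26.7% and 26.5% rose and 28.4%, 29.2% and 26% fell in WT, uap1-1 and uap1-2. Under library totals 11, 6 and 9 of the 16 still rose, beside 19.2%, 15.8% and 19.6% of all tested genes. Leaving out any 1 WT library kept the count of rising genes between 13 and 14. The subunit gene eIF3J (AT1G66070) had 23.6, 23.9, 26.8 and 25.2 CPM in WT control and 54.2, 59.2, 44 and 65.7 CPM in WT cold, a rise of log2 1.17 (SE 0.12, adjusted p = 4.51e-08, edgeR). eIF3B2 (AT5G25780), one of a pair of genes for the same subunit, went from 34.6, 34.3, 38.9 and 42.5 CPM to 74.6, 69.4, 66.6 and 90.5 CPM and rose by 1.00. Both genes had all cold libraries above all control libraries in each genotype. The steepest rise of the group in WT, chosen after its values were seen, was that of eIF3G2 (AT5G06000), from 5.07, 2.24, 2.51 and 3.68 CPM to 11.7, 10.5, 11.2 and 8.67 CPM, or log2 1.64. The exception was AT4G23330, a gene described as resembling eIF3A, which fell from 15.5, 15.8, 15.9 and 18.7 CPM to 8.26, 10.6, 9.82 and 9.87 CPM (log2 -0.77, adjusted p = 0.000265, edgeR). The gene eIF3A itself (AT4G11420) rose by 0.93 in WT (adjusted p = 0.00593, edgeR), with 94.6, 89.0, 187 and 123 CPM in control and 224, 179, 163 and 371 CPM in cold, groups that overlap.

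Promoters of these genes were searched for the letters of 5 motifs in the 250 bases before the annotated start, on both strands, with TAIR10.1 sequence from RefSeq. The site II motif, TGGGCC or TGGGCT, was present in 36.1% of the 147 tested genes, in 43.8% of the 16 eIF3 genes and in 44.8% of the 29 nucleoporin genes, beside 21.8% of the 20578 tested protein-coding genes. Of the 70 genes that rose in WT 32.9% held it, and of the 25 that fell 48%. The telo box, AAACCCTA, was present in 4.76% of the tested genes and 3.54% of all, and the evening element, AAAATATCT, in 1.36% and 2.52%. The CRT/DRE core, CCGAC, was present in 15.6% and 12.8%, and the ABRE core, ACGTG, in 20.4% and 23.9%. These are matches of letters and not shown to be sites. The promoters of 4 eIF3 genes that hold site II and of eIF4A2, which rose most among the initiation factors and holds none, are printed below, 5′ to 3′ on the gene's strand, with each matched motif in capitals. They lie at chr5:1807861-1808110 (eIF3G2, plus strand), chr1:3610617-3610866 (eIF3H, AT1G10840, minus strand), chr5:8976914-8977163 (eIF3B2, minus strand), chr5:9785289-9785538 (eIF3B1, AT5G27640, minus strand) and chr1:20259297-20259546 (eIF4A2, plus strand).
eIF3G2: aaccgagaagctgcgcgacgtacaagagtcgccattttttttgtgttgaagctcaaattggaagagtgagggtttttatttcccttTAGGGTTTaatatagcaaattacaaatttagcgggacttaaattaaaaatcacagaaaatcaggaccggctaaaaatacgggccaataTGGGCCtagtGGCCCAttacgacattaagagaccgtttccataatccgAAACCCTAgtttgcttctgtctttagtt
eIF3H: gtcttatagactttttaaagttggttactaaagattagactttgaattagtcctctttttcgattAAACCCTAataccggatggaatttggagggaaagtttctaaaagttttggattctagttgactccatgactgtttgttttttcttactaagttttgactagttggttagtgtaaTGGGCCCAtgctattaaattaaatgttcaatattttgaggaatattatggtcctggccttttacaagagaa
eIF3B2: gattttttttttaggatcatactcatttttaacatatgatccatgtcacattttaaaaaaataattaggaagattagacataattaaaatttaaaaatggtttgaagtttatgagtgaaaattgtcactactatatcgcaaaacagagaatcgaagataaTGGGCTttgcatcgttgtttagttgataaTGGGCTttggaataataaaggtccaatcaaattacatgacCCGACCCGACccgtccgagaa
eIF3B1: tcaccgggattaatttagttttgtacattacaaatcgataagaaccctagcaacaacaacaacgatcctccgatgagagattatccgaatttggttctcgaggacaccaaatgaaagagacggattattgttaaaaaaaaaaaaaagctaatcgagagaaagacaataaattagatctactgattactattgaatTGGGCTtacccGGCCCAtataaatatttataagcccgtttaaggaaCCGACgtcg
eIF4A2: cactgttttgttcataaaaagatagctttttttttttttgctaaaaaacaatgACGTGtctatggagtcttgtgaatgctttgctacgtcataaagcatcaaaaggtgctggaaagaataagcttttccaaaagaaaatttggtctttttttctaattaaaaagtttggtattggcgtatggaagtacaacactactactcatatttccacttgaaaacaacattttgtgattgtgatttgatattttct
In eIF3G2 a pair of site II motifs in opposite orientation starts 76 and 66 bases before the gene, between telo boxes that start 164 and 28 bases before it. In eIF3H, which has a telo box at 185 bases, the site II motif overlaps its own reverse complement, so that 1 stretch gives a match on each strand at 71 and 69 bases before the gene. The paralogs eIF3B2 and eIF3B1 hold 2 site II motifs each, at 90 and 61 bases and at 55 and 44 bases before the gene, followed by the CRT/DRE core. eIF4A2 holds only the ABRE core of the 5 motifs, 197 bases before the gene.

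Factors that select the start codon moved less evenly. Of 17 tested genes 9 rose and 3 fell in WT, beside 25.8% and 28.4% of all tested genes. Under library totals 6 rose and 3 fell, beside 19.2% and 35% of all tested genes. The gene eIF1A (AT5G35680), which keeps the scanning ribosome open, had 48.5, 59.6, 45.7 and 53.8 CPM in WT control and 117, 121, 80.7 and 98.3 CPM in WT cold and rose by log2 1.01 (adjusted p = 1.8e-05, edgeR). For eIF2-alpha (AT2G40290), the subunit whose phosphorylation slows initiation, values went from 48.8, 47.0, 55.9 and 51.8 CPM to 85.3, 75.5, 78.5 and 92.6 CPM, a rise of 0.71. Both genes had cold libraries above control libraries in each genotype. Under library totals eIF1A in uap1-1 (0.29, adjusted p = 0.138) and eIF2-alpha in uap1-1 (0.06, adjusted p = 0.752) and uap1-2 (0.29, adjusted p = 0.113) lost their calls.

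The strongest fall among the initiation factors in WT and uap1-2 was that of AT5G01940, described as a member of the eIF2B family and annotated as eIF2-beta. It went from 4.71, 4.09, 2.56 and 4.12 CPM to 0.850, 1.24, 0.589 and 0.813 CPM in WT (log2 -2.14, SE 0.29, adjusted p = 1.37e-06, edgeR), with -1.99 in uap1-1 and -1.94 in uap1-2. In uap1-1 eIF5B AT1G76720 fell by more, at -2.01, a call lost without uap1-1 cold replicate 1 (-1.71) or 4 (-1.73). The main eIF2-beta gene (AT5G20920), chosen for this contrast after its values were seen, stood at 77.4 FPKM on average and rose by 0.60 in WT.

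The 4 tested eIF1 genes did not move together. eIF1 at AT1G54290 rose by 0.80 in WT (adjusted p = 0.00529, edgeR), from 19.7, 16.9, 11.0 and 13.7 CPM to 30.8, 29.5, 30.1 and 16.6 CPM, where WT cold replicate 4 lay among the control libraries. eIF1 at AT4G27130 fell by 0.29 in WT (adjusted p = 0.0288, edgeR), and this call was lost without WT control replicate 1 (-0.28) or 2 (-0.26) and without WT cold replicate 1 (-0.23) or 3 (-0.28), as it was with the size factors of DESeq2 (-0.26, adjusted p = 0.0551). The other 2, AT5G54760 and AT5G54940, stood at 0.19 and 0.34 in WT and were not called there.

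The 2 genes named here for eIF5B, the GTPase that joins the ribosomal subunits, pointed opposite ways in WT. AT1G76810 had 90.7, 111, 169 and 134 CPM in control and 188, 185, 142 and 291.5 CPM in cold (log2 0.68, adjusted p = 0.00507, edgeR), and under library totals 0.45 (adjusted p = 0.144). AT1G76720 had 2.07, 2.90, 12.5 and 6.12 CPM in control and 1.56, 1.05, 1.23 and 3.47 CPM in cold (log2 -1.70, adjusted p = 0.0409, edgeR). The groups overlap for both. The second call was lost without WT control replicate 3 (-1.03) or 4 (-1.68) and without WT cold replicate 1 (-1.63), 2 (-1.51) or 3 (-1.55). Of its 31-base words 36.4% recur in the genome, and both genes are over 3000 bases long, a class whose counts shifted between libraries of a group.

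eIF2B, which recharges eIF2 with GTP, had 4 of 7 tested genes higher and 0 lower in WT, beside 25.8% and 28.4% of all tested genes. Under library totals 3 were higher and 0 lower, beside 19.2% and 35% of all tested genes. Its catalytic subunit eIF2B-epsilon (AT2G34970) went from 26.9, 31.1, 34.9 and 34.3 CPM to 59.2, 50.5, 44.5 and 62.1 CPM, and rose by log2 0.77, 0.62 and 0.75 in WT, uap1-1 and uap1-2 (adjusted p = 1.05e-05, 0.000133 and 1.55e-05, edgeR). The groups did not overlap in any genotype. Under library totals the rise in uap1-1 was not called (0.20, adjusted p = 0.287).

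The poly(A)-binding proteins, which coat the tail of messenger RNA, had 2 of 8 tested genes higher and 2 lower in WT, near the shares of all tested genes called in each direction. PAB8 (AT1G49760) had 166, 123, 102 and 116 CPM in WT control and 259, 216, 253 and 240.2 CPM in WT cold, and rose by log2 0.94, 1.01 and 0.69 in WT, uap1-1 and uap1-2 (adjusted p = 3.21e-06, 1.13e-06 and 0.000134, edgeR). Its groups did not overlap. PAB2 and PAB4 (AT2G23350), the genes with the highest FPKM of the group, stood at -0.12 and 0.06 in WT and were not called in any genotype. The gene PAB5 (AT1G71770) rose by 2.50 in WT from near 0, with 0.362, 0, 0.0426 and 0.0887 CPM in control and 0.472, 0.670, 0.589 and 1.03 CPM in cold, so that the size of this change rests on few reads. The falls of PAB6 (AT3G16380; -0.94) and AT5G41690 (-0.95) in WT were each lost without 1 of 2 libraries: for PAB6 without WT control replicate 2 (-0.81) or WT cold replicate 1 (-0.81), and for AT5G41690 without WT control replicate 3 (-0.80) or WT cold replicate 1 (-0.82).

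The 3 tested eEF1A genes, which deliver aminoacyl-tRNA to the ribosome, stood at 0.36, 0.44 and 0.57 in WT, and 1 of them, AT1G07930, was called (adjusted p = 0.0347, edgeR). Leaving out 1 WT library gave between 0 and 3 calls: that of AT1G07930 was lost without WT control replicate 2 (0.37), 3 (0.42) or 4 (0.36), without WT cold replicate 2 (0.45), 3 (0.41) or 4 (0.43) and under library totals (0.26). In uap1-1 all 3 were called, at 0.92, 0.83 and 1.07, also under library totals, and in uap1-2 none was, at 0.16, 0.23 and 0.29. Neither mutant's cold response differed from that of WT at an adjusted p under 0.05 for any of them. Between 53.3% and 69.3% of their 31-base words recur in the genome, so the division of reads among them is uncertain.

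Among the 29 tested nucleoporin genes 13 rose and 3 fell in WT, 11 and 1 in uap1-1 and 12 and 3 in uap1-2. Of all tested genes 25.8%, 26.7% and 26.5% rose and 28.4%, 29.2% and 26% fell in WT, uap1-1 and uap1-2. The median log2 fold change of nucleoporins in WT was 0.34, beside 0.61 for the initiation factors. Of the 12 tested genes of the channel, cytoplasmic face and basket 8 rose in WT. Under library totals 3 rose, beside 19.2% of all tested genes. Leaving out 1 WT library left between 5 and 8. The channel nucleoporin NUP54 (AT1G24310) had 10.7, 9.81, 14.2 and 12.9 CPM in WT control and 31.2, 29.7, 29.3 and 37.8 CPM in WT cold. It rose by log2 1.43 in WT (SE 0.15, adjusted p = 5.39e-08, edgeR), 1.05 in uap1-1 and 1.00 in uap1-2, and no cold library overlapped a control library. RAE1 (AT1G80670), an export factor docked at the pore, rose by 0.52 in WT, from 20.9, 15.6, 15.5 and 16.5 CPM to 25.7, 22.1, 23.6 and 27.0 CPM in WT. Its locus overlaps NUP96 (AT1G80680), which stood at -0.18, on the opposite strand, and whether counting used strand is not stated. The rise of RAE1 in uap1-1 (0.60) was not called under library totals (0.16, adjusted p = 0.297).

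The inner ring held both directions. NUP155 (AT1G14850) had 33.8, 27.2, 39.5 and 28.8 CPM in WT control and 59.2, 45.0, 57.8 and 74.9 CPM in WT cold and rose by log2 0.87, 0.96 and 0.78 in WT, uap1-1 and uap1-2. The groups did not overlap. NUP93A (AT2G41620), a linker of the same ring, fell from 48.0, 41.5, 42.4 and 41.2 CPM to 30.4, 23, 31.8 and 35.2 CPM in WT (log2 -0.52, adjusted p = 0.00196, edgeR) and stood at -0.29 in uap1-1, which was not called. Its paralog NUP93B (AT3G57350) fell by 0.56 in WT, a call lost without WT control replicate 4 (-0.47) or WT cold replicate 2 (-0.47). The large scaffold genes NUP188 (AT4G38760) and NUP205 (AT5G51200), named after their values were seen, stood at -0.01 and -0.15 and were not called in any genotype.

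In the outer ring, the complex built around NUP107 and NUP160, 2 of 8 genes rose and 1 fell in WT, beside 25.8% and 28.4% of all tested genes. Under library totals 0 rose and 3 fell, beside 19.2% and 35% of all tested genes. NUP85 (AT4G32910) was the gene that fell, from 52.8, 41.9, 35.4 and 42.4 CPM to 30.6, 30.4, 32.9 and 33.6 CPM (log2 -0.44, adjusted p = 0.00306, edgeR). The groups did not overlap in WT and overlapped in uap1-1, where it stood at -0.11. SEC13A (AT3G01340) and NUP133 (AT2G05120) rose by 0.36 and 0.76 in WT, and neither call held under library totals (0.18 and 0.53). Single libraries also ended them: for NUP133 WT control replicate 1 (0.60) or WT cold replicate 4 (0.57), and for SEC13A WT control replicate 3 (0.27) or 4 (0.32) or WT cold replicate 2 (0.33), 3 (0.34) or 4 (0.38). In the membrane ring GP210 (AT5G40480) had 17.7, 22.1, 58.5 and 32.2 CPM in WT control and 66.6, 55.5, 50.3 and 119 CPM in WT cold. It rose by 1.15 (adjusted p = 0.00866, edgeR), a call lost without WT cold replicate 4 (0.81) and under library totals (0.90, adjusted p = 0.0764). GP210 is 6292 bases long, and its highest control and cold libraries, WT control replicate 3 and WT cold replicate 4, were those in which genes over 3000 bases stood 0.38 and 0.29 above their group mean; the part of transcript length in this value was not tested.

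**Figure D3:**
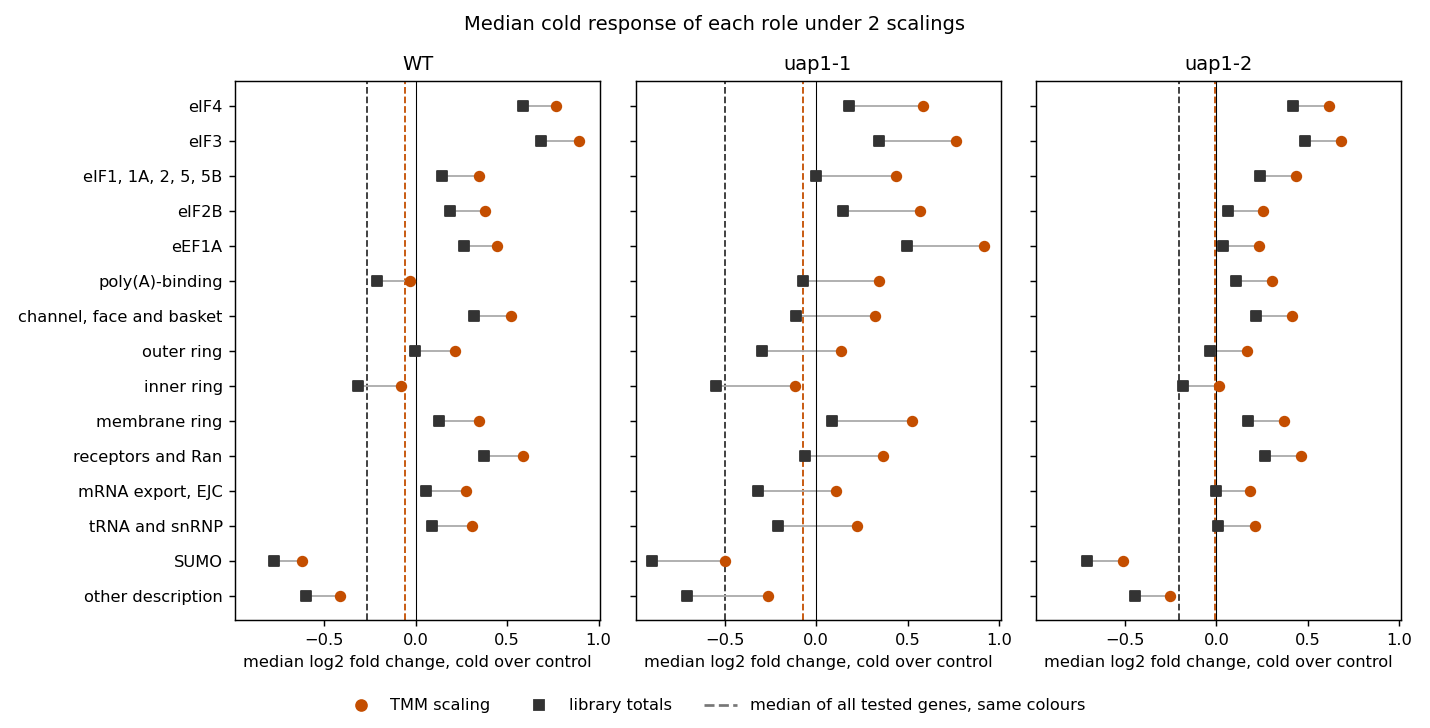
Median log2 fold change of cold over control for each role with TMM scaling (orange circles) and with library totals (black squares); dashed lines are the medians of all tested genes under each scaling. Library totals moved every role to the left, and eIF3 and eIF4 stayed above 0 in all 3 genotypes while the outer ring reached 0 or below.

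Among transport receptors and the Ran system 5 of 9 tested genes rose in WT and 0 fell, beside 25.8% and 28.4% of all tested genes. Under library totals 4 rose and 1 fell, beside 19.2% and 35% of all tested genes. RANGAP2 (AT5G19320), which makes Ran hydrolyse GTP, had 9.98, 11.6, 18.6 and 14.7 CPM in WT control and 31.8, 27.0, 22.0 and 43.4 CPM in WT cold and rose by log2 1.17 (SE 0.22, adjusted p = 0.000118, edgeR). The groups did not overlap in WT or uap1-2 and overlapped in uap1-1, where the rise of 0.59 was lost without uap1-1 control replicate 2 (0.50) and without uap1-1 cold replicate 2 (0.48) or 3 (0.46). AT3G08943, described as an importin with ARM repeats, rose by 0.85, 0.84 and 0.70 in WT, uap1-1 and uap1-2. Its neighbour AT3G08947 stood at -0.06 in WT and was not called, and 42.2% and 40.7% of their 31-base words recur in the genome. The microRNA exporter HST (AT3G05040) and the importin gene KPNB1 (AT5G53480), named after their values were seen, stood at 0.26 and -0.15 in WT and were not called.

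Of the 13 tested genes of mRNA export and the exon junction complex 4 rose and 1 fell in WT, beside 25.8% and 28.4% of all tested genes. Under library totals 3 rose and 2 fell, beside 19.2% and 35% of all tested genes. SR45 (AT1G16610), an SR-like protein tied to splicing and the junction complex, had 33.5, 21.4, 37.3 and 29.1 CPM in WT control and 49.6, 48.5, 58.6 and 74.8 CPM in WT cold. It rose by log2 0.93, 1.34 and 0.89 in WT, uap1-1 and uap1-2 (adjusted p = 6.95e-05, 7.13e-07 and 0.000131, edgeR) with no overlap of groups. PYM (AT1G11400), which removes the junction complex at the ribosome, went from 25.9, 22.9, 17.0 and 27.2 CPM to 41.3, 37.9, 39.2 and 39.9 CPM and rose by 0.77, 0.56 and 0.68. In uap1-1 this was not called under library totals (0.14, adjusted p = 0.325). THO7B (AT3G02950), of the THO complex that loads export factors, fell by 0.47 in WT, a call lost without any of WT control replicates 2 (-0.48), 3 (-0.47) and 4 (-0.40) or WT cold replicates 1 (-0.43) and 3 (-0.38).

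tRNA-end processing showed paralogs of 1 enzyme on both sides. Protein-only RNase P, which removes the leader of precursor tRNAs, has 3 genes. The nuclear enzyme gene PRORP2 (AT2G16650) had 19.2, 18.4, 18.1 and 20.1 CPM in WT control and 8.54, 6.27, 6.29 and 8.89 CPM in WT cold. It fell by log2 1.34, 1.49 and 1.30 in WT, uap1-1 and uap1-2 (adjusted p = 1.86e-08, 3.53e-09 and 3.01e-08, edgeR). The other nuclear enzyme gene, PRORP3 (AT4G21900), had 9.11, 9.59, 10.8 and 10.4 CPM in WT control and 16.3, 18.9, 18.5 and 20.5 CPM in WT cold. It rose by 0.89, 0.82 and 0.90 (adjusted p = 2.55e-06, 7.62e-06 and 2.42e-06, edgeR), and in uap1-1 it missed the threshold under library totals (0.40, adjusted p = 0.0536). PRORP1 (AT2G32230), the enzyme of organelles, fell by 0.46, 0.52 and 0.60 from 88.3, 71.2, 84.8 and 92.1 CPM to 64.8, 53.4, 65.3 and 61.0 CPM in WT. Cold and control libraries did not overlap for any of the 3 genes in any genotype.

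RNase Z trims the other end of tRNAs, and its genes split as well in WT, the genotype for which the rises are given. TRZ4 (AT3G16260) had 27.1, 32.2, 37.8 and 44.6 CPM in WT control and 19.2, 15.6, 17.8 and 17.8 CPM in WT cold, and fell by log2 1.01, 1.13 and 0.99 in WT, uap1-1 and uap1-2 (adjusted p = 0.000371, 0.000115 and 0.000449, edgeR). TRZ1 (AT1G74700) had 2.69, 4.75, 5.32 and 5.06 CPM in WT control and 8.69, 6.61, 7.47 and 7.75 CPM in WT cold, and TRZ3 (AT1G52160) had 12.5, 11.8, 14.4 and 17.7 CPM and 28.4, 20.2, 20.2 and 23.7 CPM. They rose in WT by 0.77 and 0.71 (adjusted p = 0.00373 and 0.000749, edgeR), and the rise of TRZ1 was not called under library totals (0.53, adjusted p = 0.085). TRZ2 (AT2G04530) stood at 0.76 in WT, with groups that overlap, and its call was lost without WT control replicate 1 (0.71) or 2 (0.59), without WT cold replicate 1 (0.73) or 4 (0.54) and under library totals (0.53, adjusted p = 0.193).

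**Figure D4:**
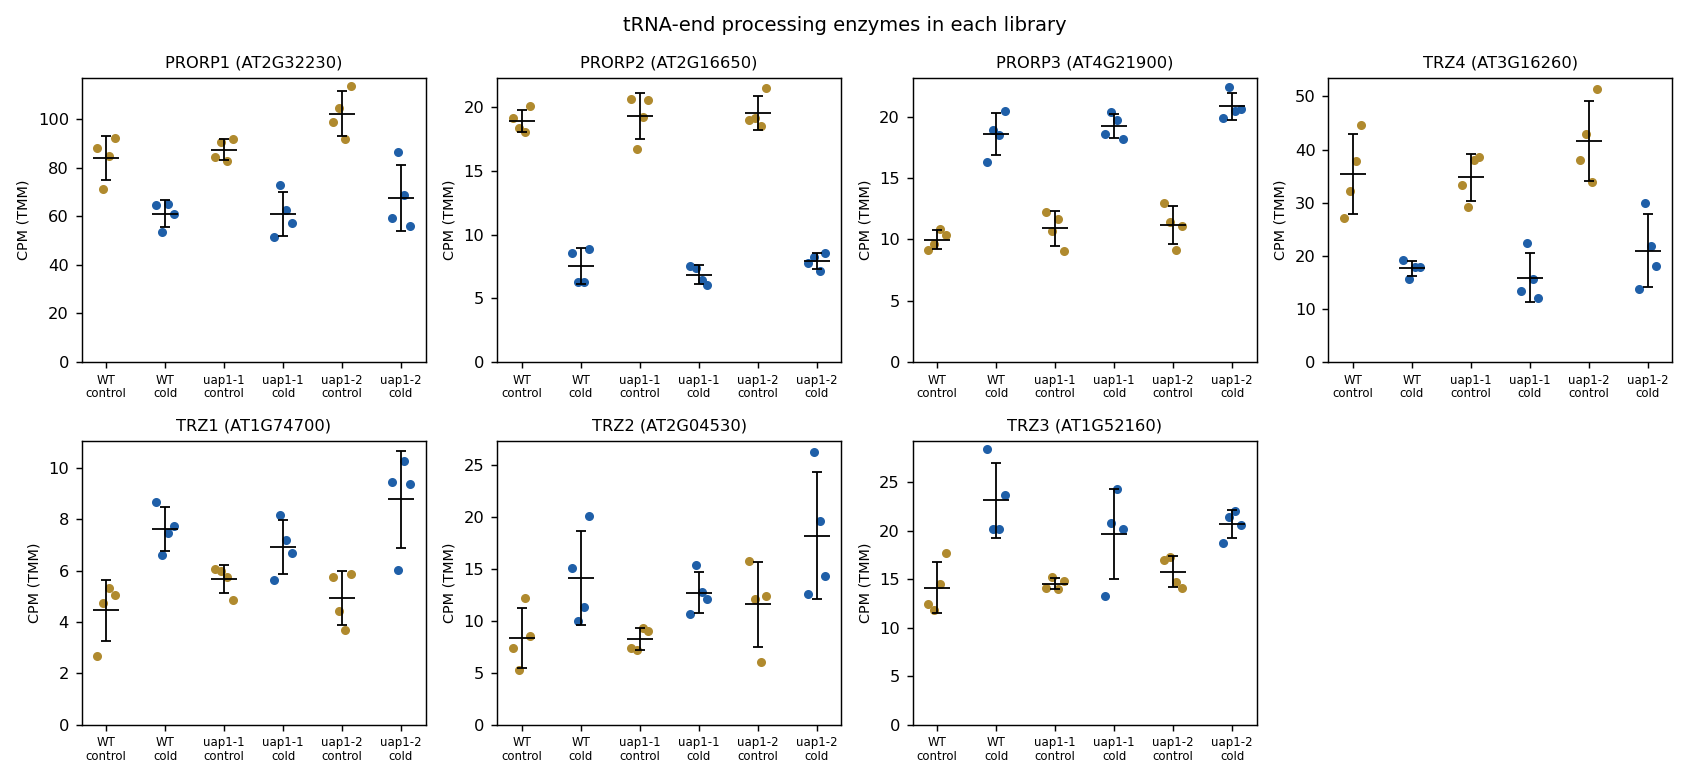
CPM after TMM scaling of the 3 PRORP and 4 TRZ genes in each library (points; ochre for control, blue for cold), with the mean and SD of each group of 4. PRORP2 and TRZ4 stand lower in cold and PRORP3 higher, with no overlap of cold and control within a genotype.

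In the assembly of small nuclear RNPs, AT1G30545 and its neighbour AT1G30550, annotated as RNA trimethylguanosine synthases, fell together. AT1G30545 went from 5.28, 5.19, 5.45 and 8.03 CPM to 1.13, 1.87, 1.96 and 1.19 CPM in WT, a fall of log2 -1.95 (SE 0.24, adjusted p = 4.33e-07, edgeR), with -2.28 in uap1-1 and -1.86 in uap1-2. AT1G30550, at 1.02 to 1.75 CPM in 3 WT control libraries and 0.569 CPM in replicate 1, fell by 1.86 in WT and by 2.84 in uap1-1. The methyltransferase gene PRMT5 (AT4G31120), which prepares Sm proteins for assembly, rose by 0.58 in WT (adjusted p = 0.000512, edgeR) but not under library totals (0.36, adjusted p = 0.0758). Over the whole group of 18 tested genes, 9 rose and 7 fell in WT, beside 25.8% and 28.4% of all tested genes. Under library totals 3 rose and 8 fell, beside 19.2% and 35% of all tested genes. The group as placed here also counts PIR (AT5G18410), whose part in tRNA maturation or RNP assembly is not shown by these data.

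Genes of the SUMO group fell or were not called. SUMO2 (AT5G55160), 1 of the main forms of this small protein modifier, had 107, 95.2, 49.2 and 85.8 CPM in WT control and 40.5, 46.2, 42.2 and 36.9 CPM in WT cold, and fell by log2 1.02, 0.89 and 0.97 in WT, uap1-1 and uap1-2 (adjusted p = 9.11e-05, 0.000409 and 0.000169, edgeR). SUMO3 (AT5G55170), at 1.72 FPKM over all libraries beside 85.9 FPKM for SUMO2, fell by 1.58, 2.18 and 1.64 in WT, uap1-1 and uap1-2. No groups overlapped for either gene. The 2 were the called genes among 5 tested, beside 28.4% of all tested genes called lower in WT. SUMO5 (AT2G32765) and the conjugating enzyme gene SCE1 (AT3G57870) stood at -0.62 and -0.36 in WT and were not called. Under library totals 4 of the 5 were called lower, beside 35% of all tested genes in WT.

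The largest change in the set belonged to a gene whose description is not of RNA transport. ECT8 (AT1G79270), a reader of N6-methyladenosine, carries the KEGG identifier of the basket nucleoporin NUA (AT1G79280). Both loci overlap on opposite strands, and the part of this overlap in their counts was not tested. ECT8 had 28.7, 36.6, 48.6 and 38.1 CPM in WT control and 436, 492, 340.0 and 462 CPM in WT cold. This was a rise of log2 3.51 (SE 0.26, adjusted p = 1.28e-10, edgeR), with 3.76 in uap1-1 and 3.77 in uap1-2. NUA itself had 16, 19.3, 121 and 39.7 CPM in WT control and 41.1, 31.2, 17.1 and 130.4 CPM in WT cold and was not called in any genotype (0.16, -0.72 and 0.50). It is the longest of the 147 tested genes at 6783 bases, and its highest libraries were again WT control replicate 3 and WT cold replicate 4. Among the 10 tested genes of other description 2 rose and 4 fell in WT, beside 25.8% and 28.4% of all tested genes. The transcription factor gene NFYB8 (AT2G37060) rose by 1.06 and PSRP2 fell by 0.83, from 232, 204, 207 and 235 CPM to 122, 109, 124 and 141 CPM. AT5G05480 and AT5G60430 fell by 1.24 and 1.04. Without the 19 genes of other description, 68 genes rose and 21 fell in WT.

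The 30 genes left out because they are also annotated to the spliceosome or ribosome biogenesis also rose more often than they fell. Among all tested genes 25.8%, 26.7% and 26.5% rose and 28.4%, 29.2% and 26% fell in WT, uap1-1 and uap1-2. With TMM scaling, and not tried with library totals, 16 of the 29 tested left-out genes rose and 1 fell in WT. In uap1-1 15 rose and 1 fell, and in uap1-2 15 and 2. The median log2 fold changes of the 29 genes were 0.51, 0.55 and 0.35 in WT, uap1-1 and uap1-2. They include the nuclear cap-binding gene ABH1 (AT2G13540) at 0.95, the export adaptor ALY3 (AT1G66260) at 0.53 and the exon junction helicase gene EIF4A3 (AT3G19760) at 0.70 in WT, all called (adjusted p = 1.28e-05, 6.13e-05 and 2.81e-05, edgeR). The export receptor XPO1 (AT5G17020) stood at 0.34 in WT (adjusted p = 0.0877).

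The uap1 lines were compared with WT in each condition, and their cold responses with that of WT. By edgeR 0 of the 147 genes were called in any of these 6 comparisons, beside 0.00467% of all tested genes for uap1-1 against WT under control conditions (1 gene) and 0% in the other 5. At an unadjusted p under 0.05 there were 8 genes for uap1-1 and 7 for uap1-2 under control conditions, 2 and 7 in cold, and 3 and 1 for the difference of cold responses. DESeq2 also called 0, with 8, 9, 2, 11, 6 and 2 at an unadjusted p under 0.05. A miss does not show that the lines were equal: the 95% interval of a gene reached a median of 0.35 to either side in the comparisons of lines and 0.50 in the differences of cold responses. Within these intervals a change of 2-fold or more lay outside the bounds for 134 genes in each line under control conditions, 130 in each line in cold, and 109 and 124 genes for the differences of the cold responses of uap1-1 and uap1-2.

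Values of individual genes show the sizes involved. For AT1G30550 the uap1-1 control libraries had 3.94, 2.86, 2.49 and 2.79 CPM against 0.569, 1.72, 1.75 and 1.02 CPM in WT control, with no overlap (log2 1.25, 95% interval 0.43 to 2.06, adjusted p = 0.354, edgeR). uap1-2 control had 1.74, 1.24, 1.46 and 0.742 CPM, among the WT values. PAB7 (AT2G36660) had 1.59, 1.89, 2.17 and 1.88 CPM in uap1-2 cold against 0.944, 0.479, 0.933 and 0.867 CPM in WT cold, also without overlap (1.22, interval 0.46 to 1.98, adjusted p = 0.928), while uap1-1 cold had 0.449, 1.20, 0.521 and 0.677 CPM. SR45 in control stood at 26.6, 17.7, 22.8 and 25 CPM in uap1-1 against 33.5, 21.4, 37.3 and 29.1 CPM in WT with overlap (-0.40, interval -0.75 to -0.05, adjusted p = 0.482). For PAB6 the cold response of uap1-1 minus that of WT was 1.28 (interval 0.33 to 2.23, adjusted p = 0.482). None of these passed the test over all genes, and they were singled out by their unadjusted p after the values were seen.

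**Figure D5:**
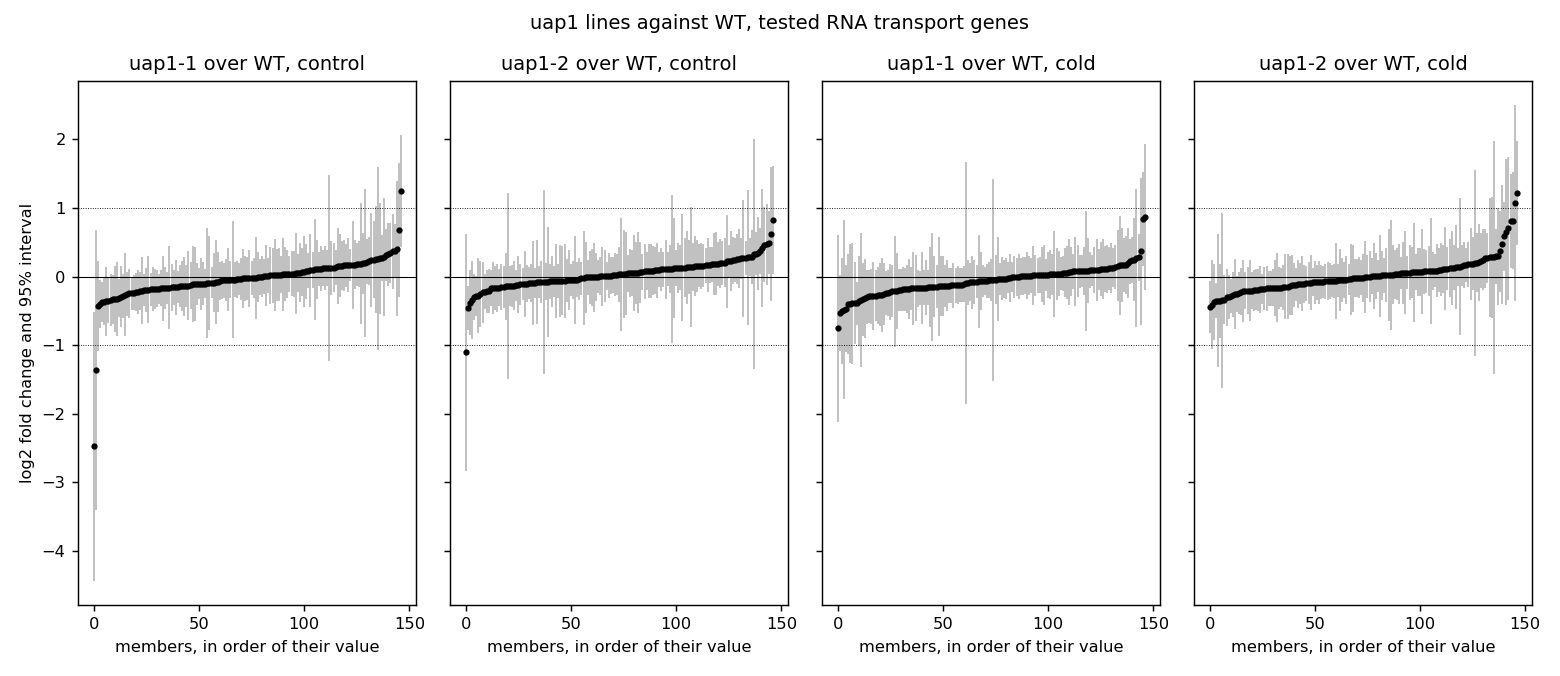
Log2 fold change of each uap1 line over WT under control conditions and in cold for the 147 tested genes, in order of their value, with 95% intervals (grey) and dotted lines at 2-fold. Most points lie within 0.5 of 0, 143 and 144 genes under control conditions and 142 and 140 in cold, and none was called.

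The alleles were also set against each other. By edgeR 0 of the 147 genes were called for uap1-2 against uap1-1 in either condition, beside 0.00933% of all genes under control conditions and 0% in cold, with 4 and 8 genes at an unadjusted p under 0.05, and DESeq2 called 0, with 4 and 14. The cold comparison changed when the slope of each library on transcript length, taken within its group, was added to the fit after the data had been seen. It then called 13 of the 147 genes (8.84%), 11 higher and 2 lower in uap1-2, beside 7.28% of all genes. They include NUA (1.01, SE 0.17), GP210 (0.50), UPF2 (AT2G39260, 0.44), NUP160 (AT1G33410, 0.32) and GLE1 (AT1G13120, 0.65) on the higher side. eEF1A AT1G07940 (-0.47) and eIF(iso)4G1 (-0.36) were lower. Without the term NUA stood at 0.96 with an SE of 0.66. The slopes were drawn from these same counts around each group's mean, so the term cannot adjust a length difference between groups. It takes up spread within groups, so the standard errors and adjusted p values of this fit can be too small. No difference between the lines is read from the 13 calls. For all genes over 3000 bases the median of this comparison was 0.14, beside -0.04 for those up to 1000 bases, and the part of transcript length in these calls was not tested. With the same term 0 of the 147 genes were called in the comparisons of either line with WT.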

How the data were processed

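The authors deposited 1 table of counts and FPKM values per gene and library on the TAIR10 build, in which the counts are whole numbers that were not normalized. Per the submitters' processing notes, HISAT2 2.2.1, StringTie 1.3.3b, HTSeq 0.6.1 and DESeq2 1.26.0 were among the tools; their settings, strand included, are not given in the sources used here. The loci of NUP54, eIF1A (AT5G35680), PYM, PRMT5, AT3G08943, NUP93A, NUP93B, PAB4, PAB5 and PAB6, among others, overlap a gene on the opposite strand. The part of such overlap in their counts was not tested. The deposited FPKM equals the count over exonic length and library total. Genes were kept by filterByExpr (minimum count 10, minimum total 15) and tested with edgeR 4.0.16 (quasi-likelihood, TMM, 6 group means over 24 libraries) in R 4.3.3, with Benjamini-Hochberg adjustment over all 21428 tested genes and calls at an adjusted p under 0.05. CPM values are TMM-scaled counts, and a standard error is the log2 fold change divided by the root of its F value. DESeq2 was an alternative, as were other scalings, no filter, fewer libraries and a replicate term. The code was tested on simulated data. The genes, roles and lists were chosen with earlier results of these data known. Genes were named by rule: per role up to 2 called genes in each direction with the smallest adjusted p in WT, up to 5 called genes in each other comparison, the 5 highest FPKM, and paralogs of a role called in opposite directions in WT; any other gene named was chosen after its values were seen. No gene is named UAP1 in the table or the RefSeq TAIR10.1 annotation, in which all 177 genes have the same start and end, so the mutated gene was not checked. Replicate pairs differed by more than sampling noise (chi-square per degree of freedom 8.85 to 151 over 36 pairs). The values of 1 gene are not reported here.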

Additional observations from a re-analysis of the deposited data

Results flagged for a closer look

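In 360 groups of 4 libraries of the 60 genes named by rule, 23 had 1 library far from the other 3, by a gap, relative to the group's range, above Dixon's 95% critical value; chance alone gives about 1 in 20 such groups. Of these, 7 fell on uap1-1 control replicate 2, in which genes over 3000 bases stood 0.38 below their group mean on the log2 scale and those up to 1000 bases 0.32 above it. There GP210 was at 18.2 CPM (others 39.6 to 41.6), eIF5B AT1G76720 at 1.19 (8.53 to 9.50) and NUP93B at 15.6 (19.1 to 19.5), while eIF4A1 was at 515 (310.4 to 330.2), eIF1A AT5G35680 at 73.5 (52.8 to 55.7), eIF1 AT5G54760 at 129 (96.3 to 98.3) and SUMO3 at 3.29 (2.03 to 2.15). The part of transcript length in these values was not tested.

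In WT control, PAB4 stood at 255 CPM in replicate 1 (others 154 to 167), and in replicate 4 AT4G23330 stood at 18.7 (15.5 to 15.9) and AT1G30545 at 8.03 (5.19 to 5.45). In WT cold, eIF2B-beta AT3G07300 stood at 47.8 CPM in replicate 1 (42.6 to 43.1), AT5G05480 at 7.995 (6.33 to 6.58) and PAB7 at 0.479 (0.867 to 0.944) in replicate 2, and eIF1 AT1G54290 at 16.6 (29.5 to 30.8) and NUP35 AT3G16310 at 46.2 (33.0 to 33.8) in replicate 4. In uap1-1 cold replicate 2, RAE1 stood at 19.95 CPM (26.1 to 27.1) and AT1G30545 at 2.11 (1.05 to 1.16). In uap1-2 control, eIF3J AT1G66070 stood at 31.4 CPM in replicate 1 (24.8 to 25.8), and eIF5B AT1G76720 at 10.2 (3.45 to 4.49) and AT5G41690 at 6.72 (3.73 to 4.20) in replicate 4. In uap1-2 cold, eIF1A AT5G35680 stood at 91.2 CPM (125 to 127) and THO7B at 16.5 (13.8 to 14.1) in replicate 2, and eIF1 AT4G27130 at 85.8 (93.4 to 94.5) in replicate 4.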

How the results depend on the processing

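The counts of called genes for cold (95 in WT, 84 in uap1-1, 85 in uap1-2) stayed within 1.5 times under every alternative run. DESeq2 gave 100, 92 and 89, its size factors in edgeR 96, 88 and 83, library totals 79, 65 and 66, no filter 96, 86 and 81, and the groups compared alone 82, 82 and 87. With the library slope on transcript length as a term, added after seeing the data, they were 109, 104 and 102. Adjusted p values of that fit can be too small, as its slopes came from the same counts. Leaving out each library gave 87 to 93, 80 to 87 and 73 to 79. Comparisons of the lines gave 0 under every alternative run, leave-one-out included (0 to 0), except uap1-2 against uap1-1 in cold, where the length term gave 13. The cause was not tested. PRMT5 in uap1-1 turned from log2 0.35 to -0.0778 (adjusted p = 0.708) under library totals. Among the values of named genes, library totals ended 35 other calls, no filter 7, fitting fewer libraries 10, DESeq2's size factors 3 and leaving out 1 library 102 over all libraries and genes. The replicate block gave 97, 85 and 85 called genes, 0 in all other comparisons, and ended 2 calls of named genes. Replicate numbers did not pair libraries: 23 of 60 same-numbered pairs correlated above 0.1 (-0.53 to 0.54), and 7 of 24 libraries correlated best with their own number. Low counts limit genes under about 1 CPM, such as PAB5 to PAB7.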
